A study of Mus musculus with 47 samples.

Results

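The replication-dependent histone genes were taken as every row of the count table whose gene symbol begins with Hist1h, Hist2h, Hist3h or Hist4h, which gave 66 of 20456 rows. They comprise 54 genes of cluster 1 on chromosome 13, 9 of cluster 2 on chromosome 3, 2 of cluster 3 on chromosome 11 (Hist3h2a and Hist3h2ba) and 1 of cluster 4 on chromosome 6 (Hist4h4). By histone type there were 6 linker H1 genes, 18 H2A, 18 H2B, 11 H3 (4 encoding H3.1 and 7 encoding H3.2) and 13 H4 genes. RNA-seq read counts per gene were available for 47 libraries of liver, lung and brain from 17 E18.5 mouse embryos of 8 litters.

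All embryos were on a C57BL/6 background and came from intercrosses of heterozygous parents. Mutant embryos were homozygous for 1 of 2 Daxx point mutations carried in every cell, S226A or Y130A, and each set of 4 litters also supplied wild-type (WT) littermates, so 4 libraries formed each group except the 3 WT lungs of the Y130A litters. A further WT lung of those litters was not analysed here. The alleles were made by knock-in with CRISPR/Cas9 in C57BL/6N zygotes and backcrossed to C57BL/6J. Replicates were tissues of different embryos of both sexes. Because each allele changes a codon and does not remove the transcript, the counts of Daxx give no check of the genotype labels. The labelled tissues carried their markers: 5 summed hepatocyte genes gave at least 140465 counts per 1000000 counts (CPM) in every liver and at most 1202 CPM in any lung or brain.

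Replication-dependent histone genes supply the core histones H2A, H2B, H3 and H4 that package newly copied DNA, and the linker histone H1 that binds between nucleosomes. Their mRNAs accumulate in S phase, lack introns and end in a conserved stem-loop bound by the protein Slbp in place of a poly(A) tail. H3.3, encoded by H3f3a and H3f3b, is instead made throughout the cell cycle from polyadenylated mRNA, and Daxx is a chaperone that deposits H3.3 together with its partner Atrx. S226 lies in the part of Daxx that holds H3.3, and Y130 in the part that holds Atrx.

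The stem-loop that defines this class could be read in the gene models. The pattern was searched on the sense strand over whole transcripts. It was GG, 2 free bases, CT, 1 free base, TT, 1 free base, AG, 2 free bases and CC. It occurred in 43 of 66 members (65.2%) and in 94 of 21811 other protein-coding genes (0.431%). In the members it began 21 to 58 bases after the stop codon, with a median of 31, whereas a match in the other genes need not lie after the stop codon. The 16 bases took 6 forms, which divided by type. All 11 H4 genes with the pattern had a stem that the H1, H2A, H2B and H3 genes did not have. One example is shown of each form held by at least 2 members, 5′ to 3′ on the sense strand (GRCm38), with the 16 bases of the stem-loop in capitals. They are Hist1h4h at chr13:23531455-23531478 (+), Hist1h4j at chr13:21735434-21735457 (+), Hist2h4 at chr3:96262934-96262957 (-), Hist3h2ba at chr11:58949346-58949369 (+) and Hist1h3e at chr13:23561898-23561921 (-).
Hist1h4h: aaaGGCCCTTTTCAGGGCCgccca
Hist1h4j: aaaGGTCCTTTTCAGGACCaccac
Hist2h4: aacGGCCCTTTTTAGGGCCaacca
Hist3h2ba: aaaGGCTCTTTTCAGAGCCacctt
Hist1h3e: aacGGCTCTTTTAAGAGCCacctc
The loop of Hist3h2ba was the form held by 25 members of types H1, H2A, H2B and H3, and that of Hist1h3e by 6. Of the 23 members without the pattern, 16 had models that ended fewer than 40 bases after the stop codon, so the stretch that would hold a stem-loop was not in the model. The other 7 were Hist1h1a, Hist1h2bc, Hist1h2bq, Hist1h2br, Hist1h3g, Hist1h4a and Hist2h2be, whose models ran on for 48 to 2192 bases. In WT liver the median level was 151 CPM per kb of exon for the members with the pattern and 133 for those without.

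Upstream sequence was matched for 61 members. In the 250 bases before to 50 bases after the start, CCAAT on either strand was found in 52 of 61 members (85.2%) and in 37.4% of all 32851 windows of this length. Every H1, H2A, H2B and H3 member with a window had it, against 3 of 12 H4 members. The octamer ATTTGCAT on either strand, known as a binding motif of Oct factors in H2B promoters, was found in 13 of 61 (21.3%), all of them H2A or H2B genes, and in 1.74% of all windows. TATAAA on either strand was found in 57.4% of members and 13.6% of windows. A match is a run of letters and not a measured binding site. The 250 bases before the start are shown for 3 members that differ in these motifs, namely Hist3h2ba, the member whose tissue pattern differed most from the rest, at chr11:58948661-58948910 (+), the H2A gene Hist1h2ac at chr13:23683960-23684209 (-) and the H4 gene Hist1h4k at chr13:21750554-21750803 (-). Sequences are from RefSeq (GRCm38.p6), written 5′ to 3′ on the strand of the gene, and capitals mark CCAAT, ATTTGCAT and TATAAA or their reverse complements.
Hist3h2ba: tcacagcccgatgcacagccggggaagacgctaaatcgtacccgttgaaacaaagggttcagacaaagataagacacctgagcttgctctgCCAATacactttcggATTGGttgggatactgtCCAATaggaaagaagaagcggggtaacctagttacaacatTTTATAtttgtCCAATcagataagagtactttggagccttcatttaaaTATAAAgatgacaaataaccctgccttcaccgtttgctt
Hist1h2ac: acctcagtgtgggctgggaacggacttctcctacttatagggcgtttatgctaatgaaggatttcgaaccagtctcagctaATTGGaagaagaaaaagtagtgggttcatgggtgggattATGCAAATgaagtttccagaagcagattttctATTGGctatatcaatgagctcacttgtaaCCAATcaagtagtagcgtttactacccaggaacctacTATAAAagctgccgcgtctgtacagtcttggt
Hist1h4k: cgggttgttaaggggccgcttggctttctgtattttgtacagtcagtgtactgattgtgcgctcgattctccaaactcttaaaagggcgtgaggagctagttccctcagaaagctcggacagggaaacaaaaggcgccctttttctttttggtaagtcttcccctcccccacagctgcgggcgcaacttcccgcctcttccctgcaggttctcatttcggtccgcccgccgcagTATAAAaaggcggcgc
Hist3h2ba held 4 CCAAT and 2 TATAAA matches, Hist1h2ac held 3 CCAAT, 1 octamer and 1 TATAAA, and Hist1h4k held 1 TATAAA alone.

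The members resemble one another closely, which limits how well reads can be assigned. The 66 genes encode 29 distinct proteins, and the 13 H4 genes encode 1. Only 13 members had at least 90% of their 50-base stretches unique among transcripts, 30 had fewer than 50% unique and 8 fewer than 10%. In addition 21 members overlapped an antisense gene and 6 a gene on the same strand. Sums over types are therefore given beside single genes, and values of members with few unique stretches are uncertain.

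Total counts ranged from 15722147 to 26190403 in the 24 libraries of S226A litters and from 36351738 to 54885020 in the 23 of Y130A litters, so the sets differed in depth. Levels are given as CPM scaled by trimmed mean of M-values (TMM). Liver libraries of 2 embryos, WT of S226A litters replicate 2 and Y130A replicate 1, held transcripts of squamous epithelium (1009 and 678 CPM over 6 summed markers, against a median of 1.67 over the livers).

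Detection was nearly complete and differed little by tissue. A member counted as detected in a group when 3 or more of its libraries had 10 or more counts. By this limit 56 of 66 members were detected in all 12 groups, 7 in some and 3 in none. Liver groups held 62 to 63 detected members, lung groups 58 to 62 and brain groups 56 to 61. All 13 H4 genes, both genes of cluster 3 and Hist4h4 of cluster 4 were detected in every group. In all 47 libraries 60 members had reads, and 42 had at least 100 reads in each. The 3 undetected members were Hist1h2aa and Hist1h2ba, an H2A and an H2B gene known from testis, which reached at most 6 and 3 reads in any library, and Hist2h2aa1 with 1 read in all. Hist2h2aa1 shares 96.3% of its 50-base stretches with another transcript, so its level cannot be read from these counts. The members detected in some groups were Hist1h1t, Hist1h2ao, Hist1h2ap, Hist1h2bq, Hist1h2br, Hist2h2aa2 and Hist2h3c2. Apart from Hist1h1t, the testis linker histone, these share most of their 50-base stretches with 1 other gene, which is a member for 4 of them and not for Hist2h2aa2 and Hist2h3c2. Detection was higher in the deeper set in each tissue of WT embryos, 63 against 62 in liver, 62 against 58 in lung and 61 against 58 in brain. The 63 members with enough counts for a test were carried into every comparison.

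The genes differed among themselves by orders of magnitude. Per kb of exon, the highest mean levels over the WT groups belonged to 5 H4 genes (Hist1h4h, Hist1h4f, Hist1h4k, Hist1h4d and Hist1h4c), 2 H2B genes (Hist1h2bn and Hist1h2bb), 2 H1 genes (Hist1h1a and Hist1h1b) and the H2A gene Hist1h2ak. Hist1h2bn reached 1167 ± 253 CPM per kb in WT liver (SD, n = 8), and Hist1h4f 993 ± 143. Hist1h2bb followed with 979 ± 158, and Hist1h4k with 902 ± 274. The SDs of these neighbours in the order overlap. Of the linker genes, Hist1h1a had 845 ± 182 CPM per kb in WT liver, Hist1h1b 642 ± 92.8, Hist1h1c 475 ± 113, Hist1h1e 313 ± 73.9, Hist1h1d 83.0 ± 14.4 and Hist1h1t 0.905 ± 0.505. The level of Hist1h1d is divided by a long model and therefore stood low, since its CPM (616 ± 107) was close to that of Hist1h1e (604 ± 143). Of the 10 genes named as highest per kb of exon, 7 were also among the 10 highest per kb of coding sequence. Of the 12 pairs of H2A and H2B genes that start head to head 175 to 305 bases apart, 11 had both genes tested. Per kb of coding sequence the H2B partner had the higher level in WT liver in 9 pairs and the H2A partner in 2, and per kb of exon in 7 and 4, since some models of H2B genes are long. Hist1h2ac, at 106 CPM per kb of coding sequence, lies beside Hist1h2bc at 659, while Hist2h2ac, at 376, lies beside Hist2h2be at 63.4.

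**Figure D1:**
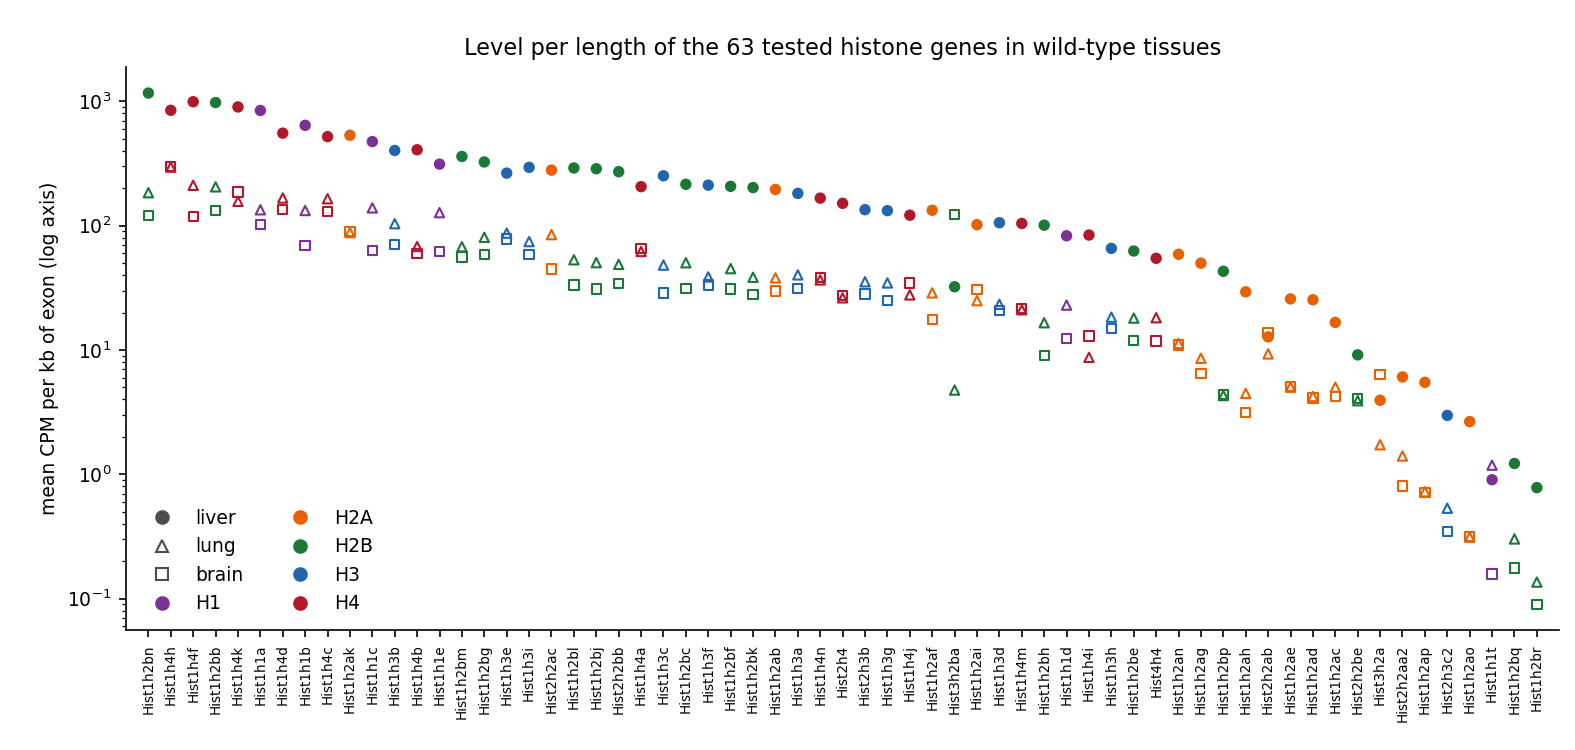
Mean level of the 63 tested members in WT liver, lung and brain, as CPM per kb of exon on a log axis, with 1 point per gene coloured by histone type. Most liver points sit above the lung and brain points of the same gene, apart from Hist3h2ba, Hist3h2a and Hist2h2ab, higher in brain, and Hist1h1t, higher in lung, and Hist1h2bn is the highest at 1167 CPM per kb in liver.

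The comparison of WT tissues asked where histone genes were most expressed at E18.5. Summed over all members, WT liver had 10892 ± 2270 CPM (SD, n = 8), WT lung 2678 ± 521 (n = 7) and WT brain 1991 ± 628 (n = 8). Most embryos gave all of these tissues, so the tissue groups are not independent, and the main fit did not take this into account. The liver sums lay between 8763 and 15247, the lung sums between 1716 and 3464 and the brain sums between 1484 and 2960. Liver therefore stood clear of both other tissues, by 4.07-fold over lung and 5.47-fold over brain, whereas lung and brain overlapped. The size of these folds depends on the scaling, as they were 2.61 and 3.65 without TMM and 3.88 and 5.20 with relative log expression (RLE) scaling. Fewer cells of a dividing type and less histone mRNA per cell cannot be told apart in such bulk samples. Every type was higher in liver than in brain, by 7.00-fold for the sum of H1, 6.00-fold for H2B, 5.25-fold for H3, 5.06-fold for H2A and 4.36-fold for H4.

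**Figure D2:**
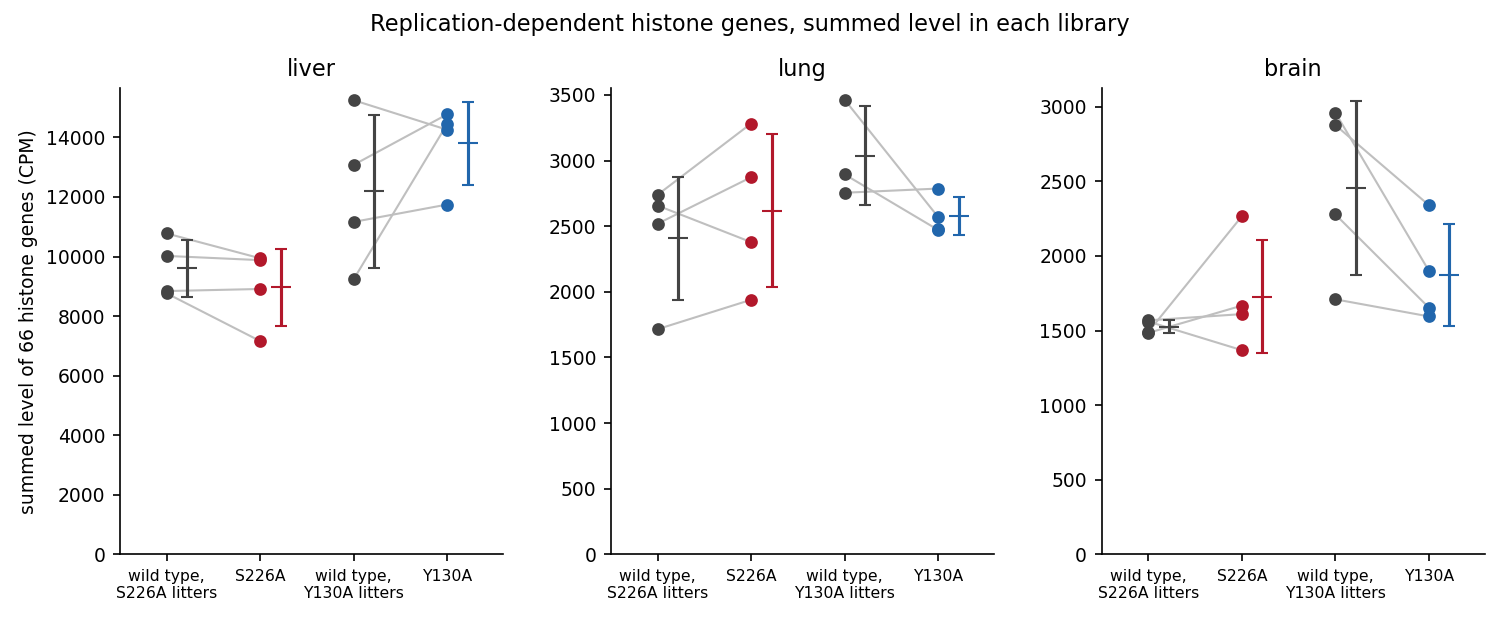
Summed level of all 66 members in each library in CPM, by tissue and genotype, with grey lines joining littermates and bars for the mean and SD of a group. Liver libraries lie above every lung and brain library, and the 4 WT brains of S226A litters lie closest together, between 1484 and 1568 CPM.

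By gene, edgeR's quasi-likelihood test called 61 of 63 members higher and 0 lower in WT liver than in WT lung, at Benjamini-Hochberg adjusted p below 0.01, a log2 fold change beyond 1 and a standard error (SE) below 1. Over all 16892 genes tested, 18.9% were called higher and 23.7% lower. Against brain, 60 members were called higher in liver and 1 lower, where 26.9% and 29.2% of all genes were. The median log2 fold change of the members was 2.18 against lung and 2.70 against brain, and that of all genes was -0.08 in both. The largest fitted differences from lung were those of Hist1h2ao (4.11 ± 0.60, SE), Hist1h2bp (3.31 ± 0.18) and Hist1h4i (3.22 ± 0.20). That of Hist1h2ao is uncertain, since this gene was detected in the liver groups alone and averaged 1.28 CPM in WT liver and 0.15 in WT lung, where single lungs of S226A litters had 0 or 1 read. Those from brain were of Hist1h2bh (3.50 ± 0.13), Hist1h2bn (3.31 ± 0.12) and Hist1h2bp (3.3 ± 0.16). Hist1h2bh, an H2B gene, spanned 131 to 214 CPM in WT livers (median 163), 14.9 to 32.0 in lungs (median 29.9) and 12 to 21.4 in brains (median 14.1), so its liver values overlapped neither other tissue. The smallest called differences from lung were 1.17 ± 0.21 for Hist3h2a, 1.20 ± 0.12 for Hist2h2be and 1.26 ± 0.12 for Hist1h1e. Not called in either comparison was Hist2h2ab, an H2A gene of cluster 2 (0.41 ± 0.19 against lung, adjusted p = 0.0407, and -0.10 ± 0.18 against brain, adjusted p = 0.602). Hist1h1t was not called against lung (-0.37 ± 0.41, adjusted p = 0.402).

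Lung and brain differed less. Here 4 members were called higher in lung and 2 lower, where 25.7% and 23.1% of all genes were, and the median log2 fold change was 0.41. At an adjusted p below 0.05 alone, 29 members stood higher in lung and 4 lower, where 41.3% and 42.8% of all genes did. The 4 were Hist1h1t (2.86 ± 0.45), the linker genes Hist1h1c (1.19 ± 0.13) and Hist1h1e (1.11 ± 0.12), and the H2A gene Hist2h2ac (1.02 ± 0.17). Hist1h1c ranged from 183 to 285 CPM in WT lungs (median 207) and from 71.0 to 148 in WT brains (median 88.4), with no overlap. The other main linker genes also stood higher in lung at an adjusted p below 0.05, with Hist1h1b at 0.95 ± 0.12, Hist1h1d at 0.94 ± 0.11 and Hist1h1a at 0.42 ± 0.13. H1 genes made up 31.2% of the summed level in WT lung, 28.2% in liver and 22.3% in brain, while H4 genes made up 30.0%, 28.1% and 35.3%.

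**Figure D3:**
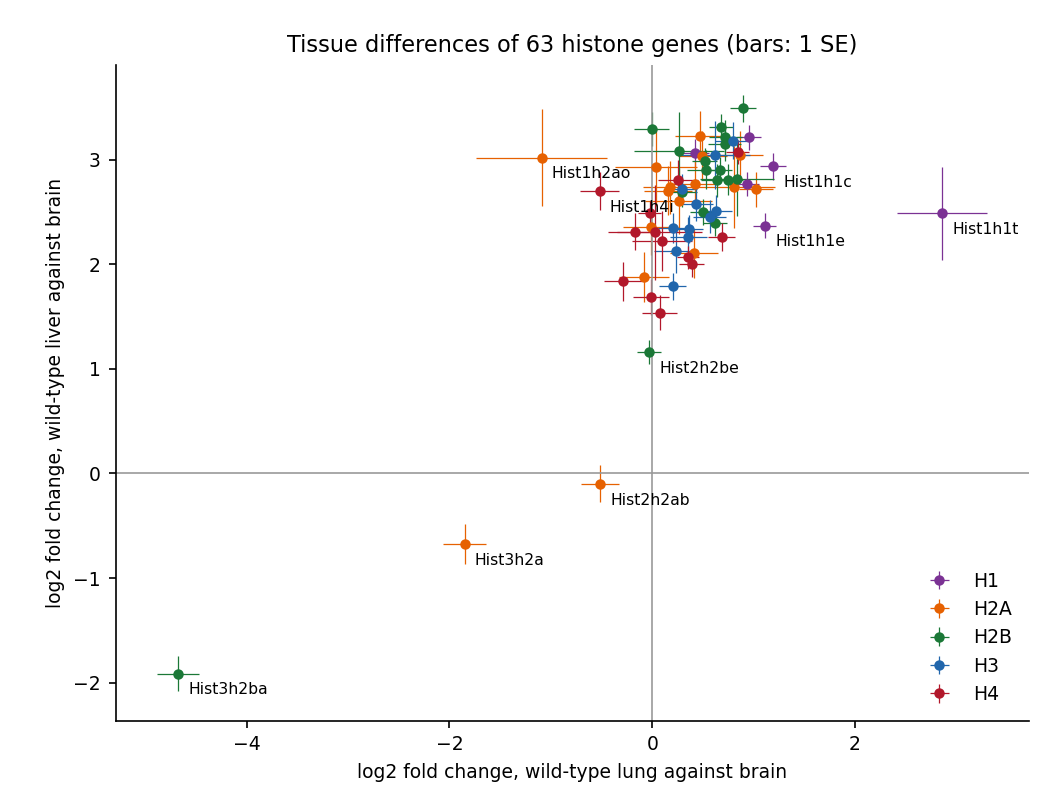
Log2 fold change of liver over brain (vertical) against lung over brain (horizontal) for the 63 tested members in WT embryos, with bars for the SE and colours by histone type. Most points lie between 2 and 3.5 on the vertical axis, whereas Hist3h2ba lies alone at -1.91 (vertical) and -4.68 (horizontal).

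The cluster 3 genes went the other way. Hist3h2ba (chr11:58948920-58949533, GRCm38, plus strand), an H2B gene, spanned 55.5 to 103 CPM in the 8 WT brains (median 69.6), 13.1 to 28.5 in the 8 WT livers (median 19.6) and 2.05 to 4.24 in the 7 WT lungs (median 2.34). The 3 ranges did not overlap. It was the only member called lower in liver than in brain (-1.91 ± 0.17, adjusted p = 6.84e-14), and it was lower in lung than in brain by 4.68 ± 0.21 on the log2 scale (adjusted p = 2.58e-23). Its neighbour Hist3h2a (chr11:58954685-58956830, plus strand), an H2A gene, ranged from 10.9 to 16.2 CPM in WT brain (median 13.8), from 3.71 to 11.6 in liver (median 9.21) and from 1.59 to 4.45 in lung (median 4.01). Brain was the highest tissue for Hist3h2a too, with a log2 fold change of -0.68 ± 0.19 in liver (adjusted p = 0.00131) and -1.85 ± 0.21 in lung (adjusted p = 1.35e-10). Hist3h2a overlaps Trim17 on the same strand and Gm44313 on the other, so the reads of these genes cannot be told apart where they overlap. Cluster 3 made up 4.59% of the summed level in WT brain, 0.261% in liver and 0.254% in lung. Hist4h4 (chr6:136801553-136804415, minus strand), the gene of cluster 4, followed the majority, with a median of 148 CPM in WT liver, 53.7 in lung and 28.5 in brain. Its log2 fold change was 1.57 ± 0.14 for liver over lung, 2.26 ± 0.13 for liver over brain and 0.68 ± 0.13 for lung over brain.

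Replication-dependent and replication-independent H3 genes differed in tissue order. H3f3a and H3f3b together had a mean of 735 CPM in WT liver, 864 in lung and 1013 in brain. The H3.1 and H3.2 genes gave 1.91 ± 0.24 reads per H3.3 read in liver (SD, n = 8), 0.405 ± 0.11 in lung (n = 7) and 0.261 ± 0.062 in brain (n = 8). H3.2 genes gave 3.46 reads per H3.1 read in liver, 3.40 in lung and 3.46 in brain, so the balance of these 2 forms was alike in mean across tissues. These ratios are of reads, not of mRNA molecules, because stem-loop mRNA lacks a poly(A) tail and the selection used for the libraries is not given in the sources used here. By gene, the log2 fold change of H3f3b was -0.76 for liver over lung and -0.83 for liver over brain, and that of H3f3a was 0.54 and 0.04 (adjusted p = 0.635 for the latter).

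**Figure D4:**
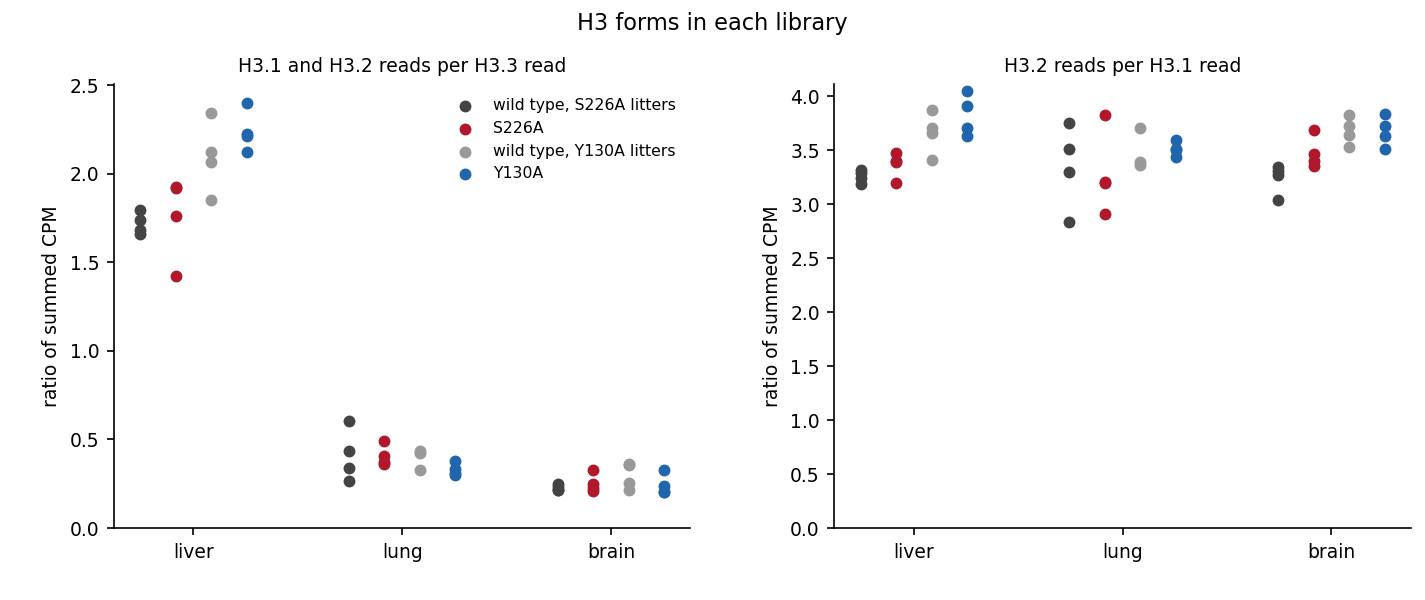
Reads of H3.1 and H3.2 genes per read of the H3.3 genes (left), and of H3.2 per H3.1 genes (right), in each library by tissue and genotype. The first ratio is near 1.91 in WT liver and 0.261 in WT brain, and the second is near 3.4 to 3.5 in the WT tissues.

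Other genes of DNA replication showed the tissue order of the histone genes in liver. Of 25 S-phase genes, 24 were called higher in WT liver than in lung and 23 higher than in brain, and of 10 mitosis genes all 10 were called in both. The S-phase genes summed to 3036 to 3871 CPM in WT liver, 561 to 976 in lung and 722 to 857 in brain. The 6 erythroid markers summed to 8858 to 13381 CPM in WT liver, 924 to 1993 in lung and 127 to 372 in brain, and their part in the liver levels was not tested. Of 12 genes of the histone mRNA machinery, Slbp, the stem-loop binding protein, was called higher in liver than in lung (1.61) and brain (1.67). Upf1, a helicase used in histone mRNA decay, was called higher in liver than in brain (1.23), and Lsm11, a part of the U7 particle that trims histone pre-mRNA, was lower (-3.10). Among 11 replication-independent variants, H2afx (2.33 over lung, 2.47 over brain) and Cenpa (1.57 and 2.94) were called higher in liver, and H2afy2 (-1.28 and -3.93) and H1fx (-1.21 and -2.19) lower. H2afx also holds the stem-loop pattern.

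The comparisons of mutants with WT littermates asked whether either Daxx mutation went with a change in histone gene expression. The paper reports more Daxx protein with Y130A and less with S226A, so the lost contact and the protein level cannot be told apart. None of the 63 members was called in any of the 6 comparisons. DESeq2 also called none. The shares of all genes called by edgeR were 2.1%, 0.302% and 0.124% in the liver, lung and brain of S226A embryos, 0.077% in Y130A liver and 0% in Y130A lung and brain. At an adjusted p below 0.05 alone, the liver and the lung of S226A embryos had 1 member each and the other 4 comparisons 0. The shares of all genes at that limit were 11.7%, 1.88% and 0.243% in the liver, lung and brain of S226A embryos, and 0.272%, 0.0178% and 0.00592% in those of Y130A embryos. The median SE was 0.22 to 0.25 per gene, and a call needed a log2 fold change beyond 1. Differences of well over 1 SE could therefore go uncalled for a typical member. That of Hist1h3e in Y130A brain (-0.54 ± 0.18) did not pass an adjusted p of 0.05 either.

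**Figure D5:**
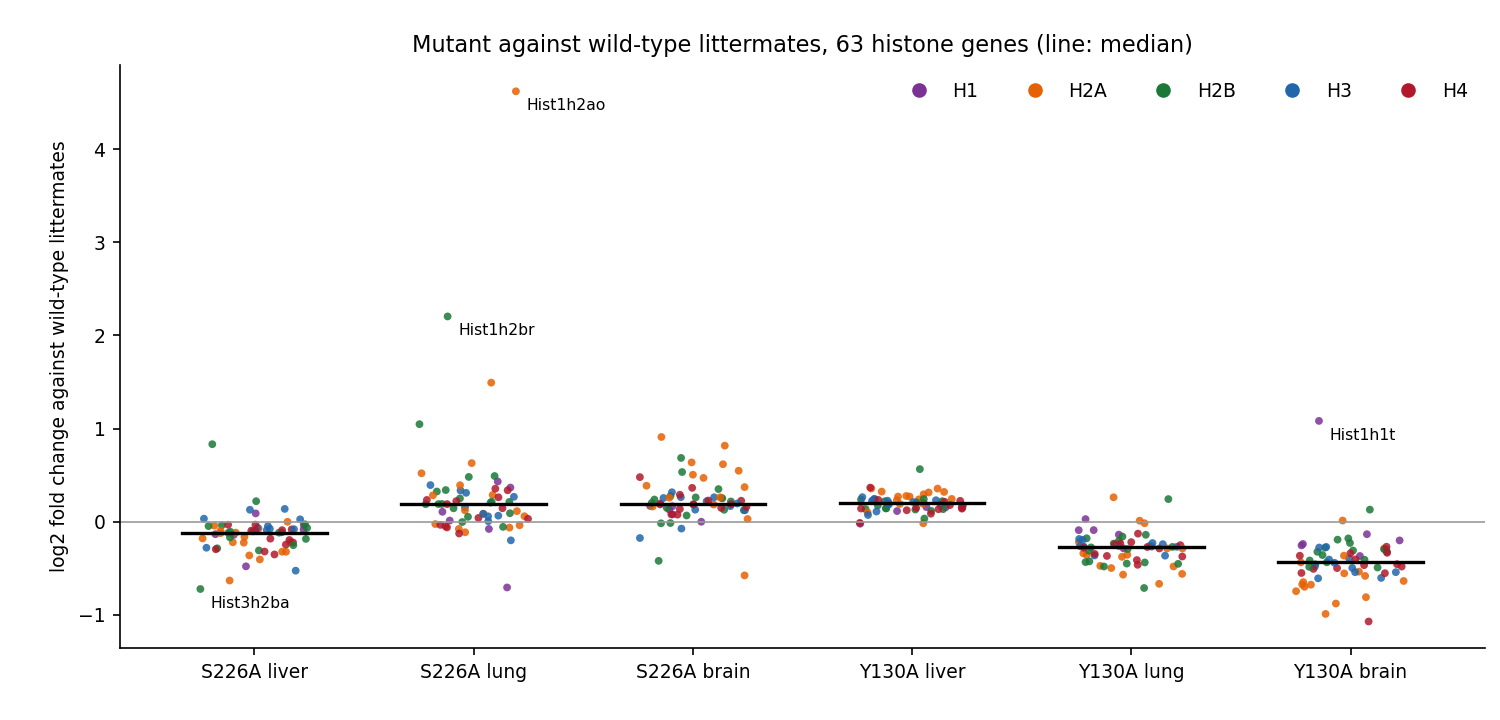
Log2 fold change of each of the 63 tested members in the 6 comparisons of mutants with WT littermates, 1 point per gene, with a line at the median. The medians lie between -0.44 (Y130A brain) and 0.20 (Y130A liver), and Hist1h2ao in S226A lung stands apart at 4.62.

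In S226A liver the summed level was 8973 ± 1297 CPM against 9600 ± 972 in WT littermates (SD, n = 4 each). By litter the mutant sums were 9879, 9941, 7160 and 8911 CPM, and those of their WT littermates 10021, 10774, 8763 and 8841, so 3 of 4 mutants were lower and 1 higher. The median log2 fold change was -0.12, with 56 of 63 members below 0 (51.6% of all genes were). It was -0.04 without S226A replicate 4, the library with the lowest sum, and the mutant mean sum was then 9577 CPM. An unadjusted p below 0.05 was found for 2 members, both lower, and for 13% of all genes in that direction. Hist3h2ba passed an adjusted p of 0.05. It measured 12.2, 11.8, 15.9 and 9.55 CPM in S226A livers and 14.2, 27.9, 19.4 and 20.3 in WT livers, so the S226A value was the lower in all 4 litters, although the ranges of the groups overlap. Its log2 fold change was -0.72 ± 0.24 (adjusted p = 0.0439, and 0.0299 with litter as a block). Without WT replicate 2, the library with squamous transcripts and the highest value, the difference was -0.54 (adjusted p = 0.185), and it kept an adjusted p below 0.05 in 2 of 8 fits that left out 1 library. The members next in p were Hist3h2a (-0.63, adjusted p = 0.156) and Hist1h2bn (-0.29, adjusted p = 0.26). Where only the libraries compared were fitted, the H4 gene Hist1h4b also passed (-0.31, adjusted p = 0.0214). Markers of other cell types moved with genotype in these livers. Of macrophage markers 5 of 5 were called lower in S226A (median log2 fold change -3.26, summed 101 to 143 CPM against 407 to 455). Of neutrophil markers 5 of 5 were called higher (1.37, summed 7341 to 8048 CPM against 2542 to 3151), as were 4 of 4 markers of granulocyte precursors (1.5, summed 1169 to 1592 CPM against 472 to 551). B-lineage markers summed to 39.7, 53.0, 27.5 and 41.9 CPM in the mutants and 64.1, 66.1, 52.5 and 51.3 in their WT littermates, litter by litter, and 1 of 4 was lower at an adjusted p below 0.05. Sums of hepatocyte markers (140465 to 163360 CPM against 167005 to 170916) and of mitosis genes (3748 to 4604 CPM against 4411 to 4791) were also the lower in the mutant of all 4 litters, with no gene of either list at an adjusted p below 0.05. Their part in the histone values was not tested.

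In S226A lung the summed level was 2618 ± 584 CPM against 2408 ± 470 in WT littermates. The litters gave 1940 against 1716, 3282 against 2739, 2873 against 2519 and 2379 against 2658 CPM, so 3 of 4 mutants were higher. The median log2 fold change was 0.19, with 49 of 63 members above 0 (50.7% of all genes), and it became 0.00 without WT replicate 3, the library with the lowest sum. An unadjusted p below 0.05 was found for 8 members, all higher, and for 8.24% of all genes in that direction. Hist1h2ao (chr13:21810465-21810944, plus strand), an H2A gene, passed an adjusted p of 0.05. Its reads were 5, 22, 5 and 3 in the S226A lungs and 0, 0, 1 and 0 in the WT lungs, and the ratio per effective library size was 31.3 with an exact 95% counting interval of 5.27 to 1272. The WT lungs of the Y130A litters held 48 reads against that same 1 read, a ratio of 26.9 (4.61 to 1086), so a WT group differed from these WT lungs about as far as the mutants did. The fitted log2 fold change was 4.62 ± 1.01 (adjusted p = 0.00792), and the SE above 1 kept it from being called. Without S226A replicate 2 the adjusted p was 0.109. Only 6.5% of its 50-base stretches are unique and 93.5% are shared with Hist1h2ap, whose log2 fold change was 1.49 ± 0.56 (adjusted p = 0.157), so reads may have been divided between them. The members next in p were the H2B gene Hist1h2br (2.20, adjusted p = 0.0531, and 0.04 in DESeq2), with 88.7% of its stretches shared with Hist1h2bq, and Hist2h2be (0.48, adjusted p = 0.12). With litter as a block, the linker gene Hist1h1b also passed (0.39 ± 0.11, adjusted p = 0.0436), which made 2 members. In the same lungs 5 of 25 S-phase genes had an adjusted p below 0.05, all higher (Ccne2 0.67, Cdc45 0.58, Asf1b 0.55, Ccna2 0.49 and Nasp 0.43), and their part in the histone values was not tested. The summed mitosis genes were higher in the mutant of all 4 litters, at 808 to 1199 CPM against 482 to 856. Markers of blood cells moved too. Macrophage markers summed to 45.9 to 55.8 CPM in S226A lungs against 85.1 to 105 in WT littermates, with 2 of 5 called lower. Neutrophil markers summed to 127 to 176 CPM against 31.9 to 74.8, with 2 of 5 called higher. Their part was not tested either.

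In S226A brain the sum was 1728 ± 381 CPM against 1526 ± 44.5. The litters gave 1667 against 1484, 1610 against 1568, 2266 against 1491 and 1368 against 1560 CPM. The third of these mutants, S226A replicate 4, stood above every other brain of its set. Members had a median log2 fold change of 0.19, with 56 of 63 members above 0 (51.2% of all genes), and 0.04 without that library. An unadjusted p below 0.05 was found for 2 members, both higher, and for 1.05% of all genes in that direction. The members with the lowest p were the H2A gene Hist1h2ad (0.82 ± 0.38), the H2B gene Hist1h2bk (0.53 ± 0.26) and the H2A gene Hist1h2ac (0.62 ± 0.34), each with an adjusted p of 1. Hist1h2ad measured 1.68, 1.52, 1.59 and 5.16 CPM in S226A brains and 1.72, 1.5, 1.09 and 1.33 in WT brains, so the difference lay in 1 library. Macrophage markers summed to 18.2 to 23 CPM in S226A brains against 45.5 to 48.3 in WT littermates, and 2 of 5 were called lower. Neutrophil markers were low in both, at 4.79 to 12.5 CPM against 1.27 to 4.16, and 2 of 5 were higher at an adjusted p below 0.05. Their part in the histone values was not tested.

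In Y130A liver the summed level was 13809 ± 1392 CPM against 12184 ± 2574. The litters gave 14254 against 15247, 14777 against 13081, 11747 against 11164 and 14458 against 9245 CPM, so 3 of 4 mutants were higher. Members had a median log2 fold change of 0.20, with 60 of 63 members above 0 (49.7% of all genes). It was 0.08 without WT replicate 3, the library with the lowest sum, and the WT mean sum was then 13164 CPM. No member had an unadjusted p below 0.05, where 9.22% of all genes had one. The members with the lowest p were Hist1h2be (0.22 ± 0.16, adjusted p = 0.801), Hist1h3e (0.23 ± 0.18, adjusted p = 0.827) and Hist1h2bh (0.20 ± 0.16, adjusted p = 0.832). Hist1h3e measured 267, 296, 247 and 322 CPM in mutants and 271, 264, 235 and 195 in their WT littermates, litter by litter, so it was lower in 1 mutant and higher in 3. In all 4 litters the mutant was also the higher in summed S-phase genes (3480 to 4089 CPM against 3089 to 3871), neutrophil markers (3745 to 4372 against 3238 to 4042) and H3.3 genes (732 to 908 against 656 to 866), and the lower in macrophage markers (435 to 501 against 473 to 533). No S-phase gene or marker among them had an adjusted p below 0.05, and their part in the histone values was not tested.

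In Y130A lung the summed level was 2577 ± 147 CPM (n = 4) against 3038 ± 376 (n = 3). The litters with both genotypes gave 2570 against 3464, 2787 against 2755 and 2472 against 2895 CPM. Across members the median was -0.28, with 59 of 63 members below 0 (50.9% of all genes), and -0.37 to -0.19 when 1 library was left out. The 2 groups did not overlap for 15 members, all lower in the mutant, where 2.55% of all genes were lower without overlap. An unadjusted p below 0.05 was found for 2 members and for 1.21% of all genes in the lower direction, and the lowest adjusted p of the members was 1. These were the H2B genes Hist2h2bb, with 15, 13.5, 11.6 and 13.3 CPM in mutants and 19.6, 17 and 18.2 in WT lungs (-0.45 ± 0.18), and Hist1h2bh, with 23.3, 23, 19.7 and 21 against 32.0, 26.4 and 29.9 CPM (-0.44 ± 0.18). Hist1h2bj followed (-0.45 ± 0.23). The summed mitosis genes were lower in the mutants too, at 987 against 1147, 801 against 807 and 701 against 912 CPM in the litters with both genotypes, and 10 of 10 were below 0 with none at an adjusted p below 0.05. The summed S-phase genes gave 996 against 976, 794 against 880.3 and 751 against 959 CPM, lower in 2 of 3 mutants. Their part in the histone values was not tested.

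Y130A brain had the median furthest from 0 of the 6 comparisons. The summed level was 1872 ± 339 CPM against 2456 ± 583. The litters gave 2340 against 2877, 1595 against 1709, 1900 against 2960 and 1654 against 2278 CPM, and the mutant was lower in all 4, at 0.642 to 0.933 of its littermate. By group the ranges overlap, since the WT littermates of the second and the last litter lay within the span of the mutants. All 4 Y130A brains lay above the 4 WT brains of S226A litters, which spanned 1484 to 1568 CPM. The WT brains of the Y130A litters, at 1709 to 2960 CPM, were the higher of the WT sets. The median log2 fold change was -0.44, with 60 of 63 members below 0 (50.5% of all genes), and -0.58 to -0.30 when 1 library was left out. An unadjusted p below 0.05 in the lower direction was found for 30 members, where 0.805% of all genes had one. After adjustment over all genes none passed, the lowest adjusted p of the members being 1 here, 0.427 with litter as a block and 0.84 in DESeq2. The member with the lowest p was the H3.2 gene Hist1h3e (26.6% unique stretches), with 69.0, 44.4, 56.7 and 48.4 CPM in the mutants and 93.8, 53.1, 101 and 70.6 in their WT littermates, litter by litter (-0.54 ± 0.18). Hist2h4 measured 44.4, 34.4, 41.4 and 38.6 against 52.2, 42.1, 59.0 and 57.4 CPM (-0.41 ± 0.15), and Hist4h4 40.6, 26.2, 31.5 and 23.1 against 48.1, 27.2, 52.7 and 41.7 CPM (-0.48 ± 0.18). Each of these 3 was lower in the mutant of every litter. Among the 34 members with at least 50% unique stretches 31 were below 0, with a median of -0.35. The testis linker gene Hist1h1t, near the limit of detection, was the member with the highest log2 fold change (1.08 ± 0.59, adjusted p = 1). The summed S-phase genes spanned 819 to 830 CPM in Y130A brains and 800.0 to 857 in WT littermates, so the groups overlap. Litter by litter they gave 825 against 846, 819 against 842, 830 against 857 and 821 against 800.0 CPM, lower in 3 of 4 mutants, and 0 of 25 passed an adjusted p of 0.05. The summed mitosis genes went the other way, at 397 against 388, 361.6 against 362.7, 359 against 336 and 335 against 320 CPM, higher in 3 of 4 mutants. The part of either list in the histone values was not tested.

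The H3.3 genes did not pass in any mutant comparison. H3f3a differed by -0.15 to 0.13 and H3f3b by -0.15 to 0.13 on the log2 scale over the 6 comparisons, with no adjusted p below 0.05. In Y130A brain, where the histone sums were lower in every litter, the summed H3.3 genes were lower in every mutant as well, at 945 against 1094, 975 against 1041, 1054 against 1202 and 1061 against 1133 CPM litter by litter. So were the summed neuron markers, at 3898 to 4462 CPM in mutants against 4329 to 4718 in their littermates, and the summed replication-independent variants, at 1554 to 1682 CPM against 1657 to 1927. Their part in the histone values was not tested. Of the other lists, the variant H2afy (0.36) and the 3′ end processing gene Cpsf3 (0.22) stood higher in S226A liver at an adjusted p below 0.05, and Birc5 (0.57) stood higher and Upf1 (-0.32) lower in S226A lung. No other gene of the variant, machinery, S-phase or mitosis lists passed in a mutant comparison, apart from the S-phase genes of S226A lung given above.

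Differences between the mutants were tested as the S226A effect minus the Y130A effect in each tissue. No member was called, and the shares of all genes called were 1.05% in liver, 0.077% in lung and 0.0474% in brain. DESeq2 called none either. The median differences were -0.31 in liver, 0.45 in lung and 0.62 in brain. When 1 library was left out they spanned -0.43 to -0.19 in liver, 0.28 to 0.59 in lung and 0.45 to 0.79 in brain. An unadjusted p below 0.05 was found for 3 members in liver, all lower (9.51% of all genes), for 13 in lung, all higher (5.44%), and for 29 in brain, all higher (0.977%). At an adjusted p below 0.05 alone, which 5.9% of all genes passed in liver, 0.308% in lung and 0.0829% in brain, Hist1h2ao passed in lung (5.29 ± 1.23, adjusted p = 0.0368), with few reads as described. Its adjusted p was 0.0664 with litter as a block, and it kept an adjusted p below 0.05 in 8 of 15 fits that left out 1 library. That block brought 2 members below 0.05 in liver, Hist3h2ba (-0.97, adjusted p = 0.048) and Hist1h2bn (-0.50, adjusted p = 0.0417), where none had passed without it in edgeR. In DESeq2, without a block, Hist3h2ba passed there too (-0.99, adjusted p = 0.0368).

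WT embryos of the litter sets also differed from each other, although both were WT. In brain, 4 members were called higher in WT of Y130A litters than in WT of S226A litters, where 0.0651% of all genes were, and the median log2 fold change was 0.66 against 0.06 for all genes. They were the H2A genes Hist1h2ai (1.55 ± 0.34), Hist1h2ak (1.41 ± 0.33) and Hist2h2ac (1.04 ± 0.23) and the H3 gene Hist1h3g (1.04 ± 0.22). Hist1h2ak measured 70.7, 21.9, 69.3 and 42.4 CPM in WT brains of Y130A litters and 21.7, 15.9, 22.1 and 16.9 in those of S226A litters, which overlap in 1 library. Without WT replicate 2 of the Y130A litters, the low library, 12 members were called, and without most other single libraries 0. At an adjusted p below 0.05, 31 members passed in brain, 7 in lung and 6 in liver, where 4.51% of all genes passed in the higher direction in brain, 9.24% in lung and 9.11% in liver (3.97% in the lower direction). Of the 6 in liver 5 were higher, with Hist1h3b the furthest (0.95 ± 0.21), and Hist2h2aa2 was lower (-1.78 ± 0.52). The 1 member called in lung was Hist1h2br (2.53 ± 0.63), with 0.469, 0.794 and 0.463 CPM against 0.0938, 0.135, 0.15 and 0, where 0.154% of all genes were called higher, and none was called in liver, where 0.414% of all genes were. Other genes moved with the set as well. WT brains of Y130A litters stood above those of S226A litters, without overlap, in summed neuron markers (4329 to 4718 CPM against 3575 to 3900), H3.3 genes (1041 to 1202 against 847 to 1011), replication-independent variants (1657 to 1927 against 1335 to 1572) and S-phase genes (800.0 to 857 against 722 to 792). In WT lungs of Y130A litters 11 of 25 S-phase and 7 of 10 mitosis genes were higher at an adjusted p below 0.05, and 3 of 5 markers of lung epithelium were lower. Macrophage markers summed to 76.2 to 84.4 CPM in these lungs against 85.1 to 105. WT livers of Y130A litters had the higher sums, without overlap, of hepatocyte markers (176384 to 206649 CPM against 167005 to 170916), neutrophil markers (3238 to 4042 against 2542 to 3151) and macrophage markers (473 to 533 against 407 to 455). Their part in the histone values was not tested. The sets differ in litters and in depth, and these cannot be told apart.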

How the data were processed

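Total RNA of liver, lung and brain from E18.5 embryos was sequenced by the authors, who used FastQC 0.11.5, Trim Galore 0.6.5, STAR 2.6.0b, the GRCm38 build and DESeq2 according to their paper and the submitters' processing notes. The deposited table held raw read counts per gene for 47 libraries. Poly(A) or ribosomal selection, strand, read length and the handling of reads that match several genes are not given in the sources used here. Library totals ranged from 15722147 to 54885020, which limits members with few reads, and counting intervals cover counting error only.

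Counts of 16892 genes that passed filterByExpr (minimum count 10, minimum total 15) were fitted in edgeR 4.0.16 (R 4.3.3) with TMM scaling, 12 groups of tissue, genotype and litter set, and 35 residual degrees of freedom, and tested by the quasi-likelihood F-test in 15 comparisons. Each p was adjusted by Benjamini-Hochberg over all genes tested. A gene was called at an adjusted p below 0.01, a log2 fold change beyond 1 and an SE below 1. Gene models were from GENCODE M21, all 66 members matching by versioned identifier, and promoter windows from RefSeq. The scripts were tested on simulated data. Members named singly are those with an adjusted p below 0.05 in a mutant comparison or interaction, the 3 with the lowest p in each mutant comparison, the 10 highest per kb, the 3 called furthest in each direction between WT groups, and all of H1 and clusters 3 and 4. Other members named, such as partners of a pair, near copies, the least different between tissues and Hist2h2ab, were chosen after their values were seen, as was the fit without the livers holding squamous transcripts. The members and lists were chosen with earlier results of these data known. The labels number the litters, so littermates are paired by design. Over all genes, deviations from group means correlated above 0.1 in 12 of 23 littermate pairs (median r 0.101) and in 4 of 69 other pairs (median r -0.034). Alternatives were RLE scaling, no low-count filter, DESeq2 1.42.0, only the libraries compared, litter as a block, a wider call and each library left out.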

Additional observations from a re-analysis of the deposited data

Results flagged for a closer look

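Sums of each of the 5 histone types and of all members together were examined in 66 groups of values with 4 libraries each, and in 5 of them 1 library stood further from the rest than Dixon's limit of 0.829 for 4 samples allows. Chance gives about 1 in 20. In the lungs of WT embryos from S226A litters, replicate 3 was low in 2 types. Its H2A genes summed to 96.9 CPM where the other 3 lungs had 155 to 160.0, and its H3 genes to 193 CPM where the others had 342 to 348. This is the library whose removal brought the median difference of S226A lung to 0.00. In Y130A liver, replicate 3 had an H4 sum of 3301 CPM, below the 4074 to 4119 of the others. Among WT brains of S226A litters, replicate 2 had an H1 sum of 379.6 CPM where the others had 326 to 334, and replicate 1 an H4 sum of 566 CPM where the others had 515 to 518.

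In edgeR without a litter block, Hist1h2ao in lung was the 1 member for which the effects of the mutations differed by test, S226A minus Y130A being 5.29 on the log2 scale (adjusted p = 0.0368, and 0.0664 with litter as a block). Other fits passed other members in liver, where Hist3h2ba had an adjusted p of 0.0368 in DESeq2 and 0.048 with the block, and Hist1h2bn 0.0417 with the block. The value rests on 35 reads in the S226A lungs and 1 in their WT littermates, while the WT lungs of the Y130A litters had 48, as 25, 16 and 7, and the Y130A lungs 20, 3, 16 and 2. The fitted log2 fold change of Y130A over its littermates was -0.67 ± 0.65 (adjusted p = 1). In 8 of 15 fits that left out 1 library the adjusted p stayed below 0.05, and the highest was 0.206, without S226A replicate 2.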

How the results depend on the processing

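Calls of members in the 6 mutant comparisons and the 3 interactions remained 0 under RLE scaling, no filter, DESeq2, only the libraries compared, litter as a block and each library left out. An adjusted p below 0.05 alone gave 1 member in S226A liver, 1 in S226A lung, 1 in the lung interaction, 33 between WT lung and brain, and 6, 7 and 31 between the WT litter sets in liver, lung and brain. Between WT livers of the sets, DESeq2 and the fit without the livers holding squamous transcripts gave 1 call each, and leaving out single libraries 0 to 1. Between WT lungs, fitting only the libraries compared gave 0 and leaving out single libraries 0 to 1. Between WT brains, RLE scaling gave 2 and leaving out single libraries 0 to 12. Without TMM scaling the summed levels were 7558 CPM in WT and 7293 in S226A livers of the S226A litters, 8840 in WT and 9810 in Y130A livers, 3589 in WT and 3043 in Y130A lungs and 1781 in WT brains of the S226A litters, which RLE scaling put at 1597. The causes were not tested. Over the WT livers of both sets together, the sum also moved by more than its SD, from 10892 CPM with TMM to 8199 without. The other group sums recomputed stayed within 1 SD of the replicates, and the other counts of calls and of detected members within 1.5 times, and no value reversed. RLE scaling moved the median of all genes by at most -0.08.

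With litter as a replicate block, the mutant comparisons and interactions changed only at an adjusted p below 0.05 alone: S226A lung gained Hist1h1b, the liver interaction gained Hist3h2ba and Hist1h2bn, and the lung interaction lost Hist1h2ao (adjusted p = 0.0664). At the same limit without a block, DESeq2 added Hist1h2br in S226A lung and Hist3h2ba in the liver interaction, and fitting only the libraries compared added Hist1h4b in S226A liver. That last fit gave no value for Hist1h2ao in S226A lung or in the lung interaction, where its counts did not pass the filter, so no member passed there. No paired analysis was possible because litters are nested in the sets where WT embryos of the sets were compared. Members with few reads or few unique stretches are limited by depth and by read assignment, and the table keeps neither strand nor multiple matches.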
